A study of Arabidopsis thaliana with 6 samples.

Results

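The binding of LEAFY (LFY), a plant-specific transcription factor that specifies floral fate, was examined at the 6 Arabidopsis thaliana genes of the TFL1 and FT family: TFL1 (AT5G03840), FT (AT1G65480), TSF (AT4G20370), BFT (AT5G62040), ATC (AT2G27550) and MFT (AT1G18100). They are 6 of the 27444 protein-coding genes of the chromosomes. A bound region was given to a gene when its midpoint lay inside the gene or within 3 kb of it, and otherwise the nearest region was sought out to 10 kb. The p35S:LFY list holds 1954 regions and the p35S:LFYTERE list 176. By this rule 2 regions of the former and none of the latter belonged to the family, and both lay beside TFL1.

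The family encodes small proteins related to phosphatidylethanolamine-binding proteins, which act as partners of transcription factors rather than binding DNA themselves. FT is the mobile florigen: it is made in leaf veins, travels through the phloem to the shoot apex and there joins the bZIP factor FD to activate floral genes. TFL1 binds FD as well but has the opposite effect, keeping the inflorescence apex in a shoot state, and LFY and TFL1 are known as mutual antagonists whose expression domains exclude each other.

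Chromatin immunoprecipitation sequencing (ChIP-Seq) with a rabbit antibody against the carboxy-terminal part of LFY had been performed on whole seedlings aged 15 days, grown in long days at 23 °C, in 3 groups of 2 biological replicates. The p35S:LFY group (line CA26-15) carried an LFY cDNA and the p35S:LFYTERE group (line CA29-17) the same cDNA with the changes T75E and R112E, which lie in the SAM domain through which LFY oligomerizes. Each transgenic group was a single line, and the 35S promoter drives expression in nearly all cells, so binding was measured also in cells where LFY is normally silent. The control was wild-type Col-0 without a transgene, and all 3 groups kept the endogenous LFY gene.

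Each region has a rank within its list, counted from 1 for the best, and a coverage fold reduction (CFR). CFR is the normalized ChIP-Seq coverage in p35S:LFY divided by that in p35S:LFYTERE. A high CFR thus stands for a site where the mutant protein gave little signal relative to LFY. Replicates had been fused before these values were made, so each region has 1 rank and 1 CFR, no standard deviation can be given, and no difference between regions was tested. The lists hold no read counts, and the p35S:LFY libraries held more mapped reads than the p35S:LFYTERE libraries, so that a call in p35S:LFY alone and the difference in depth cannot be told apart. They hold no expression values either, so the tissue was not checked against markers.

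TFL1 was the single member with bound regions. It had 2 of them in p35S:LFY, and FT, TSF, BFT, ATC and MFT had none within 3 kb. A p35S:LFY region within 3 kb was found for 13.5% of all protein-coding genes, beside 1 of 6 members, or 16.7%, a share near the background. At 2 or more regions within 3 kb, where TFL1 stands, the share of all genes was 1.89%. This cut is the count at TFL1 itself, and its 2 regions lie 43 bp apart and are not independent, so the share is a description. No member had a p35S:LFYTERE region within 3 kb or within 10 kb, against 1.49% and 3.89% of all genes.

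The TFL1 region of better rank lay on TAIR10 chromosome 5 from 1021626 to 1021937, a width of 312 bp, and held rank 342 of the p35S:LFY list. Its CFR was 22.5, that is, the mutant coverage was 4.44% of the wild-type LFY coverage over the same bases. The other region lay from 1021981 to 1022218 on the same chromosome, was 238 bp wide and held rank 1376. Its CFR was 31.7, so that mutant coverage was 3.15% of that of LFY. Neither region overlapped a p35S:LFYTERE region, and the nearest of these was 53.5 kb from TFL1 (chromosome 5, 970844 to 971103, rank 56, CFR 2.12). The signal of the mutant protein was thus low relative to that of LFY over both stretches.

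Both TFL1 regions lay between genes, on the lower-coordinate side of TFL1, with their midpoints 2.7 kb and 2.4 kb from its nearest end. No region lay inside TFL1 or on its other side within 10 kb. The same stretch between genes is bounded on the other end by AT5G03830, a gene without a symbol in the annotation, and this gene was nearer to both midpoints, at 1.3 kb and 1.6 kb. The annotation used gives no strand, so whether the regions lie before or after TFL1 in the sense of transcription is not stated here. The assignment to TFL1 rests on the window of 3 kb: with a window of 1 kb, in which 7.66% of all genes had a region, no member of the family did. With each region given to its nearest gene alone, which names 6.4% of all genes, no member was named either. The bound stretch is shown in the map of the TFL1 locus.

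**Figure D1:**
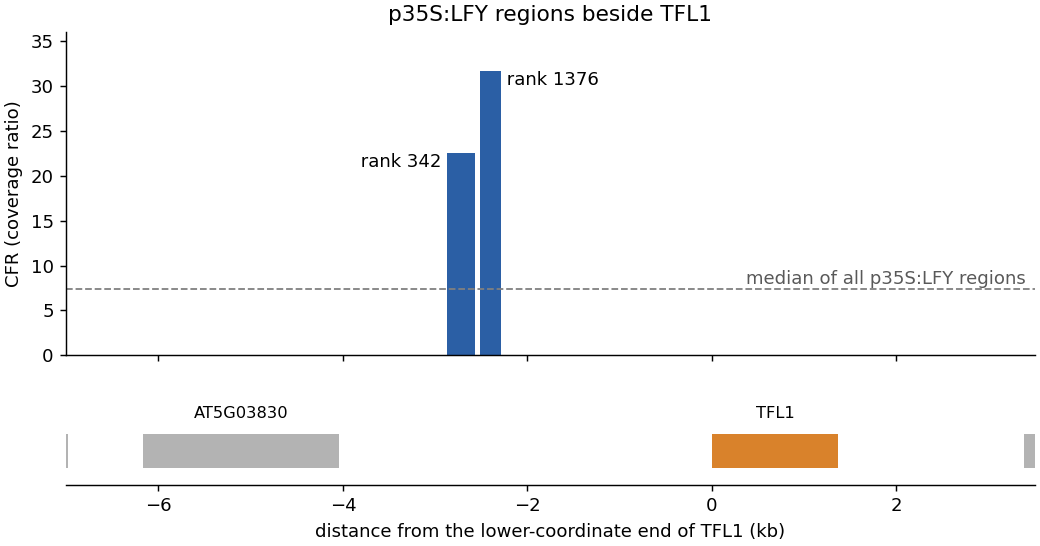
Map of the stretch around TFL1. The x axis is the distance in kb from the lower-coordinate end of TFL1, the upper y axis is CFR (a ratio without unit), bars are the 2 p35S:LFY regions drawn to their width, boxes are protein-coding genes and the dashed line is the median CFR of all p35S:LFY regions (7.40). Both bars, at CFR 22.5 and 31.7, stand well above that line in the space between AT5G03830 and TFL1.

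In the p35S:LFY list as a whole the median CFR was 7.40, and the middle 50% of regions ran from 4.82 to 13.0. The TFL1 region of rank 342 had a higher CFR than 89.5% of the 1954 regions, and that of rank 1376 had a higher CFR than 95.3%. Each was thus above that range, and 91 regions of the list had a CFR above that of the second. Each was also set beside the regions most like it in rank and in width. Among the 201 regions within 100 ranks of the first, with a median CFR of 7.52, 87.6% had a lower CFR than it, and among the 201 regions within 100 ranks of the second, with a median of 6.40, 96.0% had a lower one. The 440 regions within 25 bp of the width of the first had a median CFR of 7.75, and 86.1% of them were below it. The second region was narrow, with 3.17% of all regions narrower than it. The 136 regions within 25 bp of its width had a median CFR of 9.86, and 87.5% of them were below it.

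Of the regions that LFY bound without a call for the mutant, 1781 in number with a median CFR of 8.12, 88.5% lay below the first TFL1 region and 94.8% below the second. The TFL1 sites were therefore toward the upper end of the ratios also among regions called in p35S:LFY alone. Over all p35S:LFY regions, 8.85% overlapped a p35S:LFYTERE region, and neither TFL1 region did.

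**Figure D2:**
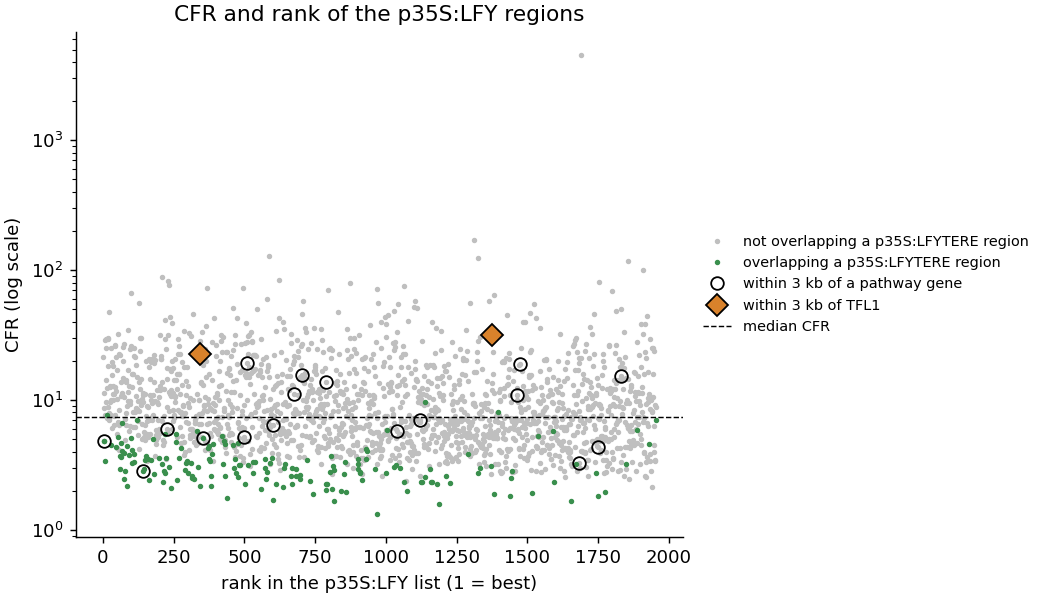
CFR (y axis, log scale, ratio without unit) against rank (x axis) for the 1953 p35S:LFY regions with a finite CFR. Grey and green points are regions without and with an overlapping p35S:LFYTERE region, open circles lie within 3 kb of a regulator, partner or target of FT and TFL1, orange diamonds are the 2 TFL1 regions and the dashed line is the median of 7.40. The diamonds sit near the upper edge of the cloud at ranks 342 and 1376, while the green points lie mostly below the median.

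The 2 TFL1 regions were neighbours, with 43 bp between them and a span of 593 bp from end to end. Pairs of consecutive p35S:LFY regions separated by 100 bp or less were uncommon, numbering 23 in the genome. Within such a pair the higher CFR was a median of 1.54 times the lower, with a range of 1.02 to 23.9, and in the TFL1 pair it was 1.41 times the lower. The TFL1 pair was thus less uneven in CFR than 14 of the other pairs. Its lower value of 22.5 compares with a median lower value of 8.23 over the pairs, and 5 pairs had a higher one. The ranks of the TFL1 pair differed by 1034 places, and 2 pairs differed by more. Since fragments reach across such a gap, the 2 regions are not independent measurements of the locus. Whatever the coverage of each, a ratio taken over both together must lie between 22.5 and 31.7.

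The size of the step between the 2 TFL1 values can be set beside sites that both lists report with different bounds. At AP1, a floral meristem identity gene that represses TFL1, the ratio was 2.86 over the 686 bp of the p35S:LFY region and 2.06 over the 323 bp of the overlapping p35S:LFYTERE region, so that the value over the wider bounds was 1.39 times the other. At SEP3, a floral MADS-box gene, the corresponding values were 4.86 and 4.22, with a factor of 1.15 between them. The factor of 1.41 between the TFL1 regions was close to the larger of these, and no order of the 2 regions can be drawn from it.

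By the rule of comparing each member's best-ranked region with regions of similar rank, the 3 p35S:LFY regions nearest in CFR to the first TFL1 region had AK3, MYB102 and AT5G49770 as their nearest genes. Their CFR values were 22.5 for AK3 (rank 265, chromosome 3, 336122 to 336589), 22.6 for MYB102 (rank 274, chromosome 4, 11421657 to 11422118) and 23.3 for AT5G49770 (rank 422, chromosome 5, 20222436 to 20222786). The likeness is one of a single ratio and a rank, over 2 genotypes. None of these 3 regions overlapped a p35S:LFYTERE region, which is no separate likeness, since they were chosen by a similarly high CFR.

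Among the close relatives of TFL1, ATC, the Arabidopsis counterpart of the snapdragon gene CENTRORADIALIS and like TFL1 a floral inhibitor, came nearest to a bound region. Its nearest p35S:LFY region was 11.9 kb away, beside AT2G27520 on chromosome 2 from 11761123 to 11761363, with rank 1480 and a CFR of 6.18. BFT, which also delays flowering when it is overexpressed, had its nearest region at 15.5 kb, beside SLK2 on chromosome 5 from 24939137 to 24939489, with rank 811 and a CFR of 2.06. This is the only nearest region of the family that was also called in p35S:LFYTERE (24939178 to 24939457, rank 25, CFR 1.97). Several genes lie between BFT and that site, and it lies beyond the 10 kb to which regions were sought.

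The florigen genes were farther from LFY regions. FT had its nearest p35S:LFY region at 25.5 kb, beside AT1G65510 on chromosome 1 from 24359305 to 24359594, with rank 1749 and a CFR of 7.28. Its paralog TSF, which acts redundantly with FT, had the most distant one of the family, at 101.4 kb, beside GALS3 on chromosome 4 from 10899071 to 10899595, with rank 500 and a CFR of 4.93. For MFT, which acts in seed germination, the nearest was at 37.4 kb, beside AT1G18210 on chromosome 1 from 6267348 to 6267753, with rank 1172 and a CFR of 4.02. The order of distance was TFL1, ATC, BFT, FT, MFT and TSF, and all distances but that of TFL1 exceeded 10 kb. Over all genes the nearest p35S:LFY region lay at a median of 20.3 kb, with quartiles of 7.3 kb and 44.2 kb, and 91.9% of genes were nearer to one than TSF. TFL1 was nearer than the lower quartile, ATC, BFT, FT and MFT were inside the quartiles, and TSF was outside them. Between the last TFL1 region at 2.7 kb and the first region of another member at 11.9 kb there was no p35S:LFY region at any of the 6 genes. Every window from 3 kb to 10 kb thus gave the same 1 of 6 members, while the share of all genes rose from 13.5% to 31.5%.

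**Figure D3:**
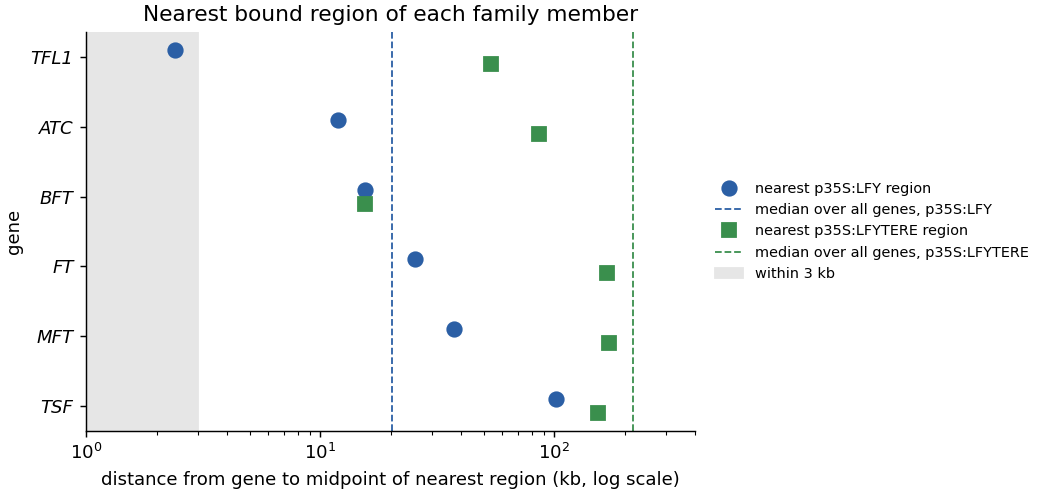
Distance (x axis, kb, log scale) from each family gene (y axis) to the midpoint of its nearest p35S:LFY region (blue circles) and p35S:LFYTERE region (green squares). Dashed lines are the medians over all protein-coding genes, 20.3 kb and 216.0 kb, and the grey band ends at 3 kb. TFL1 is the single gene with a point in the band, and BFT has both points at 15.5 kb.

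The space between genes around the members varied. It was taken as the gap to the next protein-coding gene, counted up to 3 kb on each side and added over both sides. By this measure FT had 6.0 kb, TFL1 5.01 kb, TSF 4.49 kb, ATC 3.58 kb, MFT 3.0 kb and BFT 1.85 kb of space. FT, TFL1, TSF and ATC were all among the 5486 genes with the most such space when genes were split into 5 groups. The share of genes with a p35S:LFY region within 3 kb was 14.4% in that group and 11.8% in the group with the least space. The gap to the next gene was 0.0 kb for BFT toward higher coordinates and for MFT toward lower coordinates. FT had no region in its flanking space and TFL1 had 2. Whether flanking space bears on the presence of a region was not tested.

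The genes that regulate FT and TFL1, carry their signal or respond to it were examined in the same way. Of a list of 26 such genes, 11 had a p35S:LFY region within 3 kb, a share of 42.3%, beside the 13.5% of all protein-coding genes. They had 17 regions with a median CFR of 6.43, near the median of all regions, and a range of 2.86 to 19.2. All 17 values were below the lower of the 2 TFL1 values, as were 89.5% of all p35S:LFY regions. Out to 10 kb the count was 15 of 26, a share of 57.7%, beside 31.5% of all genes. The list was drawn up with results of these data known and holds established LFY targets such as AP1, so its share is a description.

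Among 5 partners of the family proteins 3 had a region within 3 kb, beside 13.5% of all genes: FD, its paralog FDP and FTIP1. The counts by role are small parts of the same list, so they too are descriptions. FD, the bZIP factor through which FT and TFL1 reach their target genes, had 3 regions on chromosome 4. The region inside FD (17006149 to 17006603, rank 355) had a CFR of 5.04. The other regions, 1.7 kb and 2.2 kb from the gene, had CFR values of 13.8 (17002585 to 17002869, rank 787) and 6.43 (17002016 to 17002366, rank 602). The region of rank 602 was nearer to LARP1c. FDP had 1 region at 1.8 kb with a CFR of 15.7 (chromosome 2, 7720863 to 7721211, rank 704). FTIP1, which is needed for the export of FT from companion cells, had 1 at 1.8 kb with a CFR of 5.99 (chromosome 5, 2132048 to 2132574, rank 226), nearer to PGIP1. None of these 5 regions was called in p35S:LFYTERE, where 8.85% of all p35S:LFY regions overlapped one. No region lay within 10 kb of BRC1, a regulator of axillary buds, or of NAKR1, which is needed for FT movement. Over all genes, 31.5% had a p35S:LFY region within 10 kb.

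Among 9 repressors upstream, 4 had a region within 3 kb, beside 13.5% of all genes: TEM1, TEM2, SNZ and CDF1. TEM1, a direct repressor of FT, had 2 regions, at 0.5 kb with a CFR of 11.0 (chromosome 1, 8983620 to 8983947, rank 675) and at 1.7 kb with a CFR of 19.2 (8984887 to 8985235, rank 509), the highest value of the pathway list. Its paralog TEM2 had 1 region with a CFR of 3.25 (rank 1682), and SNZ, an AP2-type repressor, had 1 inside the gene with a CFR of 5.75 (rank 1038). CDF1, a repressor of FT and of its activator CO, had 1 region (rank 1751, CFR 4.36), nearer to AT5G62420. CDF1 is named although it falls outside the 10 genes of best rank. FLC, SVP, SMZ and TOE2 had no region within 10 kb, where 31.5% of all genes had one, and TOE1 had none within 3 kb. Of 4 activators 1 had a region within 3 kb, beside 13.5% of all genes. This was GI, a clock-associated protein of the photoperiod pathway, with a region at 0.9 kb (rank 499, CFR 5.19). CO, the activator of FT in long days, had none within 3 kb.

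Among 8 genes that respond to FT and TFL1, 3 had p35S:LFY regions within 3 kb, beside 13.5% of all genes: AP1, SEP3 and LFY itself. These were also the 3 pathway genes with p35S:LFYTERE regions (11.5% of the list, beside 1.49% of all genes). That share counts LFY, whose cDNA both transgenes carry. AP1 had 3 regions, with CFR values of 2.86 (rank 140), 15.4 (rank 1830, nearer to AT1G69100) and, inside the gene, 18.9 (rank 1475). Of these the first was shared with the mutant. SEP3 had a shared region of rank 4 with a CFR of 4.86, nearer to AT1G24265, and another of rank 1462 with a CFR of 10.9. The p35S:LFY region at LFY (rank 1122, CFR 6.99) was nearer to GUT1 and was not shared. The 3 p35S:LFYTERE regions at LFY lay inside the gene whose cDNA both transgenes carry, with CFR values of 0.654, 0.729 and 1.06. The part of the transgene in these calls was not tested. The 3 regions of AP1 therefore ran from a CFR of 2.86 to 18.9, and both regions of TFL1 lay above a CFR of 20, as the plot of CFR by gene shows.

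**Figure D4:**
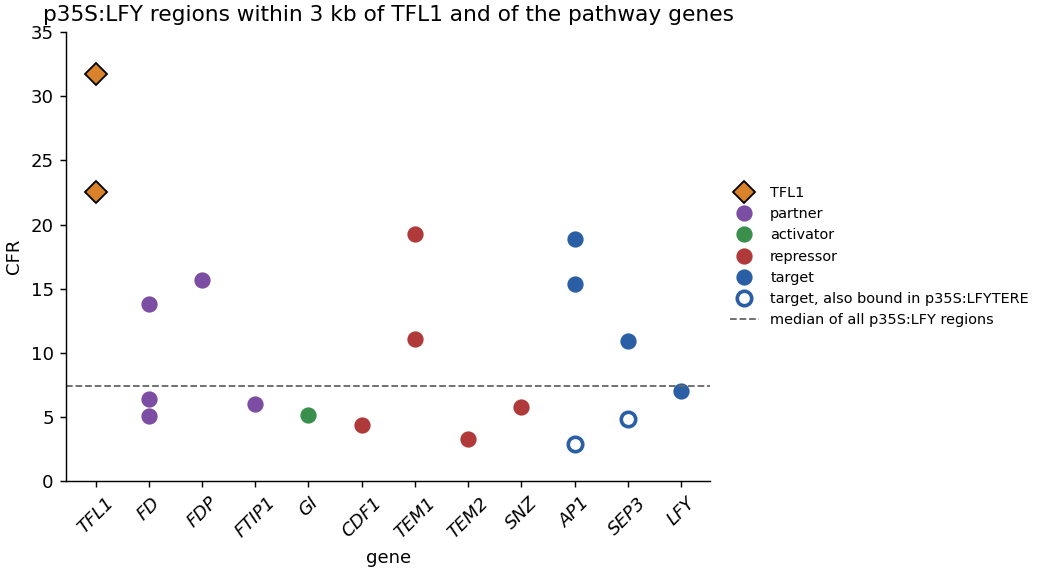
CFR (y axis, ratio without unit) of each p35S:LFY region within 3 kb of TFL1 (orange diamonds) and of the 11 bound pathway genes (x axis), coloured by role, with open circles for regions that overlap a p35S:LFYTERE region. The dashed line is the median of all p35S:LFY regions, 7.40. Both TFL1 values (22.5 and 31.7) lie above the highest pathway value of 19.2 at TEM1, and 89.5% of all p35S:LFY regions lie below 22.5.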

How the data were processed

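The deposited lists of bound regions, 1 for p35S:LFY and 1 for p35S:LFYTERE, were read as given, with TAIR10 positions written from 1. According to the methods, the authors used SHORE for mapping, for the removal of duplicates and for peak finding, and retained regions that passed a false discovery rate limit in all 4 comparisons of replicates with Col-0 controls. Rank is a score without unit that the authors deposited. CFR is a linear ratio that the authors computed after scaling replicates to each other, fusing them, and scaling genotypes on background peaks of Col-0. No column per replicate was used.

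Genes came from a RefSeq table of TAIR10.1 without strand, exons or sequence, and only names, neighbours and distances were taken from it. All 6 members and 26 pathway genes were matched by locus. As a check of positions, 56.3% of p35S:LFY midpoints lay outside protein-coding genes, against 49.3% and 51.9% after shifts of 500 bp either way. Overlap meant 1 bp or more. Named were the members, the genes nearest to their regions, the 10 bound pathway genes of best rank, and the 3 regions nearest in log2 CFR within 100 ranks. Members and lists were chosen with earlier results of these data known. The placement of regions was tested on simulated data. Python 3.11.15, numpy 2.4.6, pandas 2.3.3, scipy 1.17.1 and matplotlib 3.10.9 were used. Planned searches for the LFY core motif and comparisons of the proteins were not run, since no sequence was used here.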

Additional observations from a re-analysis of the deposited data

How the results depend on the processing

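The numbers of members and of member regions in p35S:LFY (1 and 2) were unchanged with a window of 10 kb or with distances taken from the nearest end of a region. The share of all genes with a region was 13.5% at 3 kb and 31.5% at 10 kb, so the same count stands against a higher background there. Both numbers fell to 0 with a window of 1 kb and with the nearest gene only. Among the best 1000 regions by rank TFL1 kept 1 region, that of rank 342. Its place by CFR, above 89.5% of regions, became 87.9% among those 1000 and 87.3% among regions with midpoints outside genes. For the pathway list, the count of 11 genes became 5 with a window of 1 kb, beside 7.66% of all genes, and 7 with the best 1000 regions, beside 7.51% of all genes. It was 8 with the nearest gene only, an alternative chosen after seeing the data. In all, 15 of 24 alternatives left their value within 1.5 times the count or within the binomial interval of the place. Some could not have moved: no p35S:LFYTERE region within 3 kb leaves none within 1 kb. Likewise, no overlap of 1 bp leaves none of 50% of the shorter region. The binomial interval treats the regions of a fixed list as random draws, so the count of 15 is no measure of robustness. No paired analysis was possible because the lists hold fused replicates, and for the same reason no replicate could be left out. The motif alternative was not run without sequence.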

Other observations

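Within 3 kb, 519 protein-coding genes had 2 or more p35S:LFY regions, and the lowest CFR of a gene had a median of 5.87 over them. For 23 of these genes, TFL1 included, every region had a CFR of at least 22.5. They share 14 sets of regions, since neighbouring genes can lie within reach of the same ones, as TFL1 and AT5G03830 do. The following were picked from the 23 after their values were seen. NAC045, a transcription factor gene of phloem sieve element differentiation, had CFR values of 28.7 and 29.2. CIPK25, a gene of a calcium-sensor-regulated kinase, had values of 26.9 and 32.3. BBX31, a B-box gene, had 3 regions with values from 22.7 to 129.2. No region of the 23 genes was shared with p35S:LFYTERE, and 415 of the 519 genes had no shared region. The 23 were chosen by a high CFR, which means low mutant coverage relative to LFY, so their lack of shared regions is not a separate result.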
